A study of Mus musculus with 3 samples.

Results

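The barcodes described here are sinusoidal endothelial barcodes of mouse liver in which more than 20% of the unique molecular identifiers (UMIs, 1 for each captured transcript molecule) came from the 13 mitochondrially encoded genes. A member also had at least 300 non-mitochondrial UMIs, at least 3 UMIs summed over Stab2, Clec4g, Oit3 and Gpr182, and at most 1 UMI summed over the Kupffer cell genes Clec4f, Cd5l and Marco. This rule found 226 of 4638 barcodes, here called high-mt. They are set against 771 low-mt barcodes with at most 20% mitochondrial UMIs, at least 200 genes, at least 8 UMIs of the same 4 endothelial genes and at most 2 of the Kupffer genes. The series measured single-cell RNA in flow-sorted liver non-parenchymal cells taken 3 h after injection of 20a-LNP, 20mix-LNP or PBS. Both LNPs, which are lipid nanoparticles, carried Cre mRNA at 0.3 mg/kg. All mice carried the LSL-Tomato/Ai14 reporter, which makes a red fluorescent protein after Cre recombination, and the sources used here do not give their age. Each treatment has 1 library, and the 3 libraries are told apart only by the barcode suffixes 1, 2 and 3. No source used here ties a suffix to a treatment, so no treatment is compared. The high-mt barcodes numbered 84, 49 and 93 in suffixes 1, 2 and 3, and the low-mt barcodes 188, 127 and 456.

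Liver sinusoidal endothelial cells line the liver's capillaries, have open pores in place of a continuous wall, and clear waste molecules from blood through scavenger receptors. Messenger RNAs of secreted and membrane proteins are translated at the endoplasmic reticulum (ER), those of ribosomal proteins are translated in the cytosol, some long noncoding RNAs such as Malat1 stay in the nucleus, and transcripts of the mitochondrial genome stay inside mitochondria. Barcodes with a high mitochondrial share are commonly removed as damaged cells before analysis, and the transcripts that such barcodes still hold are described here. No statistical test was run, because both groups were cut by measured values from the same libraries and barcodes of 1 library do not replicate a condition. Every library holds both groups, so the ratios within a suffix are paired values. Ratios are high-mt over low-mt in counts per 1000000 non-mitochondrial UMIs (CPM) of the summed barcodes. Each ratio has an exact 95% interval that covers counting error only, and each was also computed within every suffix.

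The high-mt barcodes held far fewer non-mitochondrial transcripts and about as many mitochondrial ones. This gap is a description, because the rule used the mitochondrial share and asked for at least 3 marker UMIs in high-mt barcodes and 8 in low-mt barcodes. Median gate UMIs were 6 in high-mt barcodes and 40 in low-mt barcodes. How far these gates set the gap was not tested. They had a median of 1144 non-mitochondrial UMIs (lowest 327, highest 6048), against 5827 in low-mt barcodes (430 to 26423). Their median of mitochondrial UMIs was 517 (108 to 63352), against 468 in low-mt barcodes (1 to 1714). The groups overlapped on both axes, but their medians lay far apart on the non-mitochondrial axis only. Per barcode, the mean of non-mitochondrial UMIs was 1353 in high-mt barcodes and 5962 in low-mt barcodes, or 22.7% of the low-mt mean, and this share was 21.3%, 22.1% and 23.9% in suffixes 1, 2 and 3. The mean of mitochondrial UMIs was 832.5 in high-mt barcodes and 496.8 in low-mt barcodes. One suffix 1 barcode with 63352 mitochondrial UMIs carried 33.7% of the members' mitochondrial UMIs, and without it the high-mt mean was 554.7. Median gene numbers were 698.5 in high-mt barcodes and 2545 in low-mt barcodes.

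**Figure D1:**
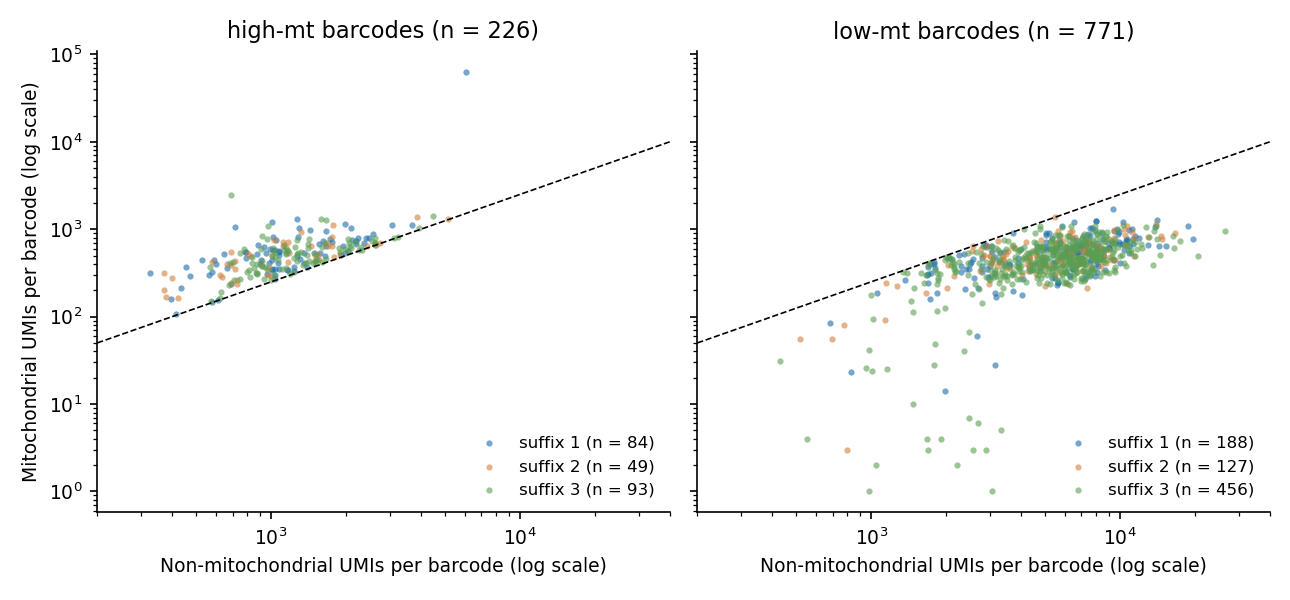
Mitochondrial against non-mitochondrial UMIs of each barcode, both on log scales, for high-mt barcodes (left) and low-mt barcodes (right), coloured by suffix; the dashed line marks a mitochondrial share of 20%. The high-mt cloud lies to the left of the low-mt cloud at a like height, with medians of 1144 and 5827 non-mitochondrial UMIs, and 1 suffix 1 barcode stands far above the rest at 63352 mitochondrial UMIs.

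The members were chosen by their mitochondrial share and by the marker UMIs, so these values are a description: the median was 28.2% in high-mt barcodes (20.0 to 91.3%) and 7.68% in low-mt barcodes. Just above the limit, 34 barcodes at over 20 and up to 22% had a median of 1898 non-mitochondrial UMIs, and just below it 44 barcodes passing the same marker gate at over 18 and up to 20% had 1797. No step was seen at the limit. The marker gate was met with little to spare, since 52 members had exactly 3 gate UMIs, and 47 barcodes that met every other criterion had 2. Of all barcodes passing the members' gate, 226 of 1128 were high-mt, which is 20.0% (exact binomial interval 17.7 to 22.5%). The share was 27.5%, 24.6% and 14.9% in suffixes 1, 2 and 3. Gated in the same way, with at least 3 UMIs of 4 markers of their own and at most 1 of the 4 endothelial genes, 66 of 266 Kupffer barcodes were high-mt (24.8%). For plasmacytoid dendritic barcodes it was 353 of 756 (46.7%), and for NK or ILC1 barcodes 7 of 659 (1.06%). These classes differ in depth and in marker abundance, which also set who passes such a gate.

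The endothelial label held. All 20 further sinusoidal markers had UMIs in high-mt barcodes, and together they made 20576 CPM in high-mt barcodes and 28360 CPM in low-mt barcodes. Pan-endothelial markers made 13746 CPM in high-mt barcodes and 18829 CPM in low-mt barcodes. The 4 gate genes, which are no finding, made 5039 CPM in high-mt barcodes and 7252 CPM in low-mt barcodes. RNA of other cells was low but not absent. Kupffer markers made 134.1 CPM in high-mt barcodes and 51.1 CPM in low-mt barcodes (41 and 235 UMIs), and B cell markers 71.9 and 7.40 CPM (22 and 34 UMIs), with 4 of the 6 B markers at 0 in high-mt barcodes. Siglech, a surface receptor of plasmacytoid dendritic cells, had 26 UMIs in high-mt barcodes, or 85.01 CPM against 3.26 CPM in low-mt barcodes, and its lowest ratio in a suffix was 17.6. The part of Kupffer RNA in the results below was not tested. For B cell and plasmacytoid dendritic RNA, the only check was the values without barcodes holding UMIs of other immune cells.

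The hepatocyte list had the highest pooled ratio of the cell type marker lists, and 1 barcode supplied most of its UMIs. The 24 listed genes, which encode plasma proteins and liver enzymes, made 10772, 2048 and 1469 CPM in high-mt barcodes of suffixes 1, 2 and 3, against 344.8, 645.4 and 283.6 CPM in low-mt barcodes. All 20 members tested had pooled ratios above 1, beside a median ratio of 0.959 for all genes tested. None of the 24 genes was at 0 in high-mt barcodes. The ratio of the pooled sums was 13.9 (12.95 to 14.9), but 963 of the 1523 hepatocyte UMIs, or 63.2%, sat in the suffix 1 barcode with 91.3% mitochondrial UMIs. Without the 6 high-mt and 1 low-mt barcodes in which hepatocyte and erythroid genes made 1% or more, the ratio was 4.91. Of all high-mt barcodes 65 held no hepatocyte UMI, as did 260 low-mt barcodes. The median hepatocyte share was 0.130% in high-mt barcodes and 0.0211% in low-mt barcodes. Erythroid genes went the other way in the pooled sums, at 474.1 CPM in high-mt barcodes and 3093 CPM in low-mt barcodes, with 1 low-mt barcode of suffix 3 at 67.0% erythroid UMIs. Without these 7 barcodes the ratio was 3.06. The source of these RNAs was not tested.

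Across the 4230 genes at 50 CPM or more in either group, most kept a similar proportion in the pooled sums. The median ratio was 0.959, and the log2 ratio had quartiles of -0.394 and 0.263. Members poor and rich in Malat1, described below, departed from this in opposite directions by transcript length. In all, 82 genes (1.94% of those tested) were at 2-fold or more higher in high-mt barcodes in the pooled sums and in the same direction in all 3 suffixes. Of the 82, 18 were on the hepatocyte list. Apoc1, Gc, Ahsg and Serpina1e, secreted liver proteins that are also among the 82, are not on that list. At 2-fold or more lower were 166 genes (3.92%). Among genes of at least 100 CPM past 2-fold in every suffix, ranked by the suffix nearest to no change, 11 of the 12 highest were genes of proteins secreted by the liver, led by Apoa2 (an apolipoprotein of high-density lipoprotein) at 199.4 CPM in high-mt barcodes and 14.4 CPM in low-mt barcodes. Alb, which encodes albumin, had 3582, 620.7 and 292.3 CPM in high-mt barcodes of the 3 suffixes, against 101.8, 194.8 and 70.7 CPM in low-mt barcodes. Without the 7 barcodes rich in hepatocyte or erythroid RNA, Alb in suffix 1 was at 550.1 CPM in high-mt barcodes and its pooled ratio was 4.55 in place of 15.8, and Apoa2 had 118.1 CPM in high-mt barcodes. The Serpina1 genes among them are near-identical copies whose reads may be split between them. The remaining gene was Gm26917, annotated as a long intergenic noncoding RNA of 1 exon at chr17:39843013-39846341 (mm10, plus strand). Gm26917 had 1023, 1459 and 1185 CPM in high-mt barcodes, against 357.6, 385.6 and 282.1 CPM in low-mt barcodes, a ratio of 3.72 (3.31 to 4.18). Without the 7 barcodes rich in hepatocyte or erythroid RNA, 7 genes met the rule: Apoa2, Apoc1, Trf, Serpina1e, Alb, Gm26917 and Ccdc88a, an actin-binding protein of migrating cells, at 2.29.

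Nuclear-retained RNA was over-represented in the high-mt barcodes of every suffix. The list (11 genes with a row) made 51957, 60414 and 66313 CPM in high-mt barcodes of suffixes 1, 2 and 3. In low-mt barcodes it made 37245, 38093 and 35660 CPM, for a pooled ratio of 1.64 (1.62 to 1.67). All 5 members tested had ratios above 1, with a median of 1.63 against 0.959 for all genes. Malat1, a nuclear speckle RNA at chr19:5795690-5802672 (mm10, minus strand), made up nearly all of the sum at 57703 CPM in high-mt barcodes and 35485 CPM in low-mt barcodes. Neat1, the scaffold of paraspeckles, had 536.2 CPM in high-mt barcodes and 310.2 CPM in low-mt barcodes (ratio 1.73, 1.46 to 2.03). Kcnq1ot1, an imprinted antisense RNA, had 291.0 and 245.6 CPM, with an interval of 0.944 to 1.47 that spans 1. With Malat1 left out, the list made 2138 CPM in high-mt barcodes and 977.7 CPM in low-mt barcodes, a ratio of 2.19 (2.01 to 2.38). Gm26917, named above, is on this list and supplied 1184 and 318.3 CPM of these sums. The ratio of 2.19 thus rests in large part on this gene. The ratio without both Malat1 and Gm26917 was not computed. Messenger RNAs of splicing and CLK kinase factors, many of which are known to keep introns and wait in the nucleus, had a ratio of 1.29 (1.25 to 1.34). Of their 20 genes 16 were above 1, and the median of the list was 1.318 against 0.959 for all genes. This list was at 8276 CPM in high-mt barcodes of suffix 1 and 8294 CPM in its low-mt barcodes, a ratio of 1.00, while suffixes 2 and 3 had 1.398 and 1.49. Srrm2, a splicing scaffold protein of nuclear speckles, stood highest at 1115 CPM in high-mt barcodes and 544.3 CPM in low-mt barcodes.

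Transcripts of the secretory pathway were under-represented, again in every suffix. The ER translocation and folding list made 3645, 3352 and 3008 CPM in high-mt barcodes of suffixes 1, 2 and 3. In low-mt barcodes it made 5225, 4677 and 5052 CPM, and the pooled ratio was 0.658 (0.617 to 0.701). Of its 25 genes tested, 23 had ratios below 1, where most of all genes also lay, since their median ratio was 0.959. Of the 25, 6 were at 2-fold or more lower in the pooled sums and lower in each suffix, beside 3.92% of all genes. Not all were past 2-fold in each suffix, since Ssr4 had a ratio of 0.846 in suffix 1 and Pdia6 0.864 in suffix 2. The 6 were Ddost, Rpn2 and Ostc of the oligosaccharyltransferase that attaches sugars to new proteins, Ssr2 and Ssr4 of the translocon-associated complex, and the disulphide isomerase Pdia6. Ddost had 22.9 CPM in high-mt barcodes and 89.2 CPM in low-mt barcodes (7 UMIs in high-mt barcodes). The abundant chaperones were lower too, with Hspa5 (BiP) at 287.7 CPM in high-mt barcodes and 486.5 CPM in low-mt barcodes. Canx, the membrane chaperone calnexin, had 418.5 CPM in high-mt barcodes and 464.5 CPM in low-mt barcodes. Secreted proteins of endothelium had a ratio of 0.632 (0.611 to 0.653), with 13 of 14 genes tested below 1, as were most of all genes. Igfbp7, a secreted binding protein of insulin-like growth factors, had 1724, 1692 and 1615 CPM in high-mt barcodes, against 3353, 3112 and 3744 CPM in low-mt barcodes. The exception was Apoc1, which hepatocytes also make, at 7.89.

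Of the 12 genes named by the rule as lowest, 10 encode a protein with a strongly hydrophobic segment, as signal peptides and membrane spans have. So do 8 of the 11 coding genes among the 12 highest, most of them secreted liver proteins, and 32.1% of the 4194 coding genes tested, so the segment does not set the named lower genes apart from the named higher ones. The criterion was a mean Kyte-Doolittle hydropathy of at least 1.6 over 19 residues of the coding sequence in the GENCODE M21 annotation. The 10 lower genes with a segment included Pxdn (peroxidasin, which crosslinks collagen IV), Serpinh1 (a collagen chaperone of the ER) and Ppib (an ER cyclophilin). Also among them were Cst3 (the secreted protease inhibitor cystatin C), Icam2 (an endothelial adhesion molecule) and Kdelr2 (the receptor that returns proteins to the ER). Cst3 had 125.7, 155.2 and 130.8 CPM in high-mt barcodes of the 3 suffixes, against 287.5, 367.1 and 305.3 CPM in low-mt barcodes, a ratio of 0.431 (0.308 to 0.588). Pxdn had 62.8, 46.6 and 69.2 CPM in high-mt barcodes, against 218.2, 201.4 and 219.2 CPM in low-mt barcodes, a ratio of 0.288 (0.172 to 0.452). Both were named for ratios past 2-fold in every suffix, so their lack of overlap between the groups adds no evidence. The exceptions were Hspa1b, a heat-inducible chaperone, at 0.206 and Tuba1a, an alpha-tubulin, at 0.383, both cytosolic proteins with near-identical paralogs that can share reads. All 12 were also among the 20 genes that met the rule without the 7 barcodes rich in hepatocyte or erythroid RNA.

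The first 90 coding bases of 4 named genes show what a hydrophobic start is. They are the 3 lower genes with the most hydrophobic starts, and Ccdc88a, a higher gene picked because it has no segment. Capitals mark the 10 codons with the highest mean hydropathy within the first 35, read from GENCODE M21 transcripts, 5′ to 3′ on the coding strand.
Cst3: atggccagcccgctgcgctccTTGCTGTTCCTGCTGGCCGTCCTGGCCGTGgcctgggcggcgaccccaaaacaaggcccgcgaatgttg
Pxdn: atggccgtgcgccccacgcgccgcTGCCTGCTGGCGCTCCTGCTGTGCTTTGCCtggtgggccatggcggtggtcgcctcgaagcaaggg
Ppib: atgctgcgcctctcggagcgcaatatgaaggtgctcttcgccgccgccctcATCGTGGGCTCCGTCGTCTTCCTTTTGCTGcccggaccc
Ccdc88a: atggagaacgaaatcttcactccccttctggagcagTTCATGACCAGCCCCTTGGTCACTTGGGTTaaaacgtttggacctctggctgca
The capitals of Cst3, Pxdn and Ppib are mostly codons for leucine, valine, alanine and isoleucine, with a mean hydropathy of 3.38, 3.04 and 3.01. The capitals of Ccdc88a reach 1.22. Starts as hydrophobic as those of the lower genes were also found on the higher side, at 3.46 in Apoa1, 2.91 in Apoa2 and 2.77 in Alb. Cst3 lies at chr2:148871722-148875692 on the minus strand, Pxdn at chr12:29937608-30017658 and Ppib at chr9:66060222-66066623 on the plus strand. Ccdc88a lies at chr11:29373658-29510808 on the plus strand (all mm10).

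Over all coding genes tested, those with a segment had the lower median. The 1347 genes with a segment had a median ratio of 0.869 and 7.42% were at 2-fold or more lower, while the 2847 genes without one had 0.998 and 2.28%. They were also at 2-fold or more higher somewhat more often, at 2.23% with a segment and 1.72% without, and in the shortest length class at 7.77% and 1.20%. With the hepatocyte list left out, a step chosen after the values were seen, the shares at 2-fold or more higher were 1.28% with a segment and 1.55% without, and those lower 7.50% and 2.29%. Liver genes not on that list, such as Apoc1, Gc, Ahsg and Serpina1e, stayed in. In suffixes 1, 2 and 3 the medians were 0.797, 0.878 and 0.888 with a segment, against 0.969, 0.933 and 1.01 without. Transcript length also ordered the ratios. The median ratio was 0.874 in the shortest of 4 length classes of like size, 0.912 and 0.988 in the middle classes, and 1.08 in the longest. Coding length gave 0.871 in its shortest class and 1.09 in its longest, and exon number 0.890 in the class with fewest and 1.07 in that with most. Along GC content the medians ran the other way, at 1.00 in the lowest class and 0.920 in the highest. These properties are related to each other and were not separated. Genes with a segment had the lower median within each of the 4 length classes. In suffix 1 the shortest and longest classes had 0.930 and 0.961, so the order by length was weaker there than in suffix 2 (0.781 and 1.05) and suffix 3 (0.768 and 1.14). The 29 long noncoding genes had a median of 1.30.

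Receptors and lysosomal genes were lower as well, while transcription factor genes lay near 1. Endocytic receptors made 11903, 15317 and 16000 CPM in high-mt barcodes of suffixes 1, 2 and 3, against 19643, 18005 and 19282 CPM in low-mt barcodes, a ratio of 0.750 (0.727 to 0.773). Of 15 genes tested 13 were below 1, as were most of all genes. Lyve1, a hyaluronan receptor, had 1161 CPM in high-mt barcodes and 2118 CPM in low-mt barcodes (0.548, 0.492 to 0.610). Mrc1, the mannose receptor, had 1589 CPM in high-mt barcodes and 2539 CPM in low-mt barcodes. Stab1, a scavenger receptor, had 2158 CPM in high-mt barcodes and 1869 CPM in low-mt barcodes, the highest ratio of the 15 at 1.16. Lysosome genes had a ratio of 0.691 (0.659 to 0.724). Ctsl, a lysosomal protease, had 1141 CPM in high-mt barcodes and 1914 CPM in low-mt barcodes. Endothelial transcription factors and signalling genes had a ratio of 0.986 (0.954 to 1.02), and apoptosis and p53 genes 1.00 (0.906 to 1.11), with Fas at 134.1 CPM in high-mt barcodes and 132.3 CPM in low-mt barcodes. Maf, a transcription factor that marks sinusoidal endothelium, had 3502 CPM in high-mt barcodes and 3531 CPM in low-mt barcodes. Pericentral and periportal sinusoidal markers had the same pooled ratio of 0.685. The pericentral list includes the gate gene Gpr182, which supplied 426 of its 1111 UMIs in high-mt barcodes and 9598 of 24367 in low-mt barcodes. In suffixes 1, 2 and 3 the ratios were 0.7191, 0.6271 and 0.6815 for pericentral markers. Periportal markers had 0.5402, 0.7547 and 0.7706.

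**Figure D2:**
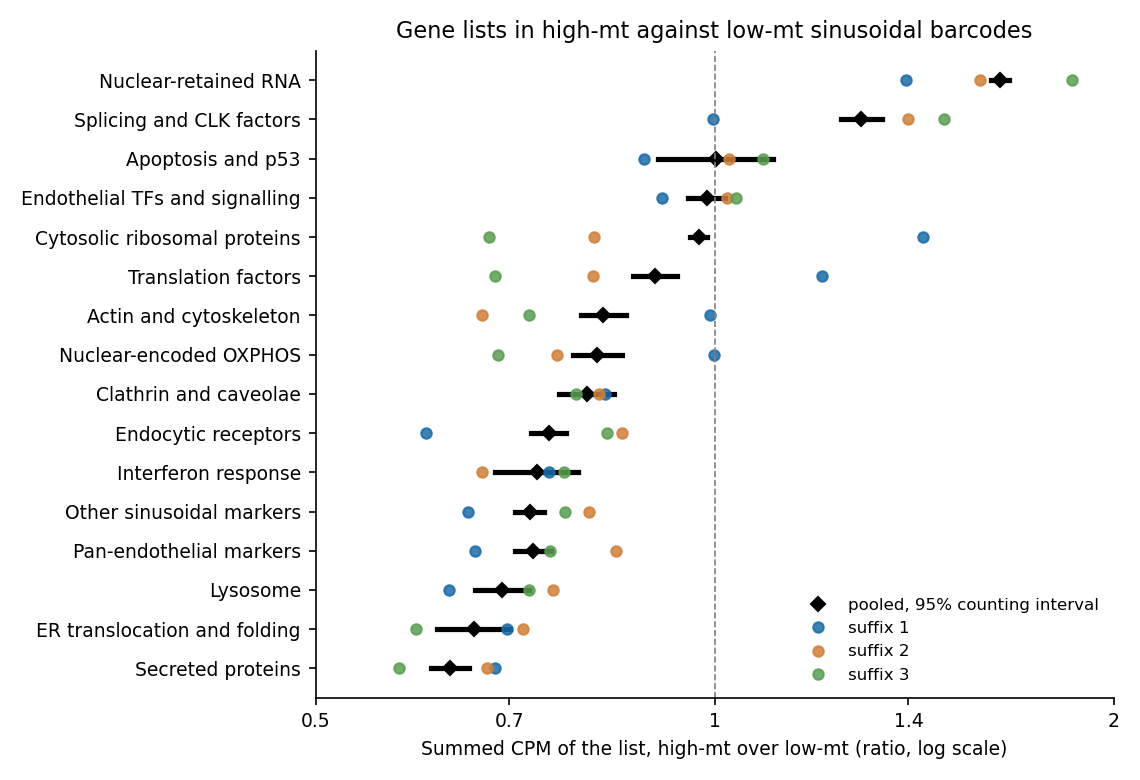
Summed CPM of 16 gene lists in high-mt over low-mt barcodes (log axis), as the pooled ratio with its 95% counting interval (diamond and bar) and as the ratio in each suffix (circles). Nuclear-retained RNA lies right of 1 in all suffixes and the ER, secreted protein and lysosome lists left of it, while ribosomal protein genes run between 0.675 and 1.44.

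Ribosomal protein genes had no common direction. They made 80386 CPM in high-mt barcodes of suffix 1, against 55954 CPM in its low-mt barcodes, a ratio of 1.44. In suffix 2 they made 55805 CPM in high-mt barcodes and 68842 CPM in low-mt barcodes (0.811), and in suffix 3 39322 and 58224 CPM (0.675). The pooled ratio of 0.972 (0.958 to 0.987) hides this split. Translation factors split the same way, at 1.21, 0.809 and 0.683. Nuclear-encoded subunits of oxidative phosphorylation (OXPHOS), whose proteins join the mitochondrially encoded ones, had 0.999, 0.761 and 0.686. Of 67 such genes tested 58 were below 1, as were most of all genes. The pooled level of the OXPHOS list was 7533 CPM in high-mt barcodes and 9235 CPM in low-mt barcodes. Summed over members, the nuclear partners of the mitochondrially encoded genes were thus at or below their low-mt level in every suffix. Members poor in Malat1, described below, had the OXPHOS list above it, at 16583 CPM. Within the mitochondrial UMIs, 12 of the 13 genes had ratios of their share between 0.917 and 1.16. mt-Atp6, the most abundant, made 19.2% in high-mt barcodes and 20.0% in low-mt barcodes, and mt-Co1, a cytochrome oxidase subunit, made 15.1% in high-mt barcodes and 16.5% in low-mt barcodes. mt-Nd3, a subunit of complex I, had a ratio of 1.16 (1.12 to 1.20) and mt-Nd5, another, 1.16 (1.095 to 1.22). mt-Nd6, also of complex I and the least abundant, had 0.657 (0.513 to 0.835) from 91 UMIs in high-mt barcodes, with 0.466, 0.267 and 1.18 in suffixes 1, 2 and 3. Without the suffix 1 barcode with 63352 mitochondrial UMIs, an exclusion chosen after the values were seen, these ratios were 1.02, 1.04 and 0.849 (0.652 to 1.095), and the other 10 lay between 0.943 and 1.06.

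The members were not uniform. Malat1 made between 0 and 20.0% of their non-mitochondrial UMIs, and the values fell into a low and a high range with few between. In 53 of the 226 (23.5%, 18.1 to 29.5%) Malat1 was under 1%, in 149 it was 4% or more, and 24 lay between. Only 8 were within 0.5 percentage points of 1%. This limit was chosen after the values were seen, and it cuts a range rather than naming a type. High-mt barcodes under 1% made up 38.1%, 18.4% and 12.9% of suffixes 1, 2 and 3, and 27 of the 53 had no Malat1 UMI at all. Among low-mt barcodes 80 of 771 (10.4%, 8.31 to 12.8%) were under 1%, and 68 of 753 (9.03%) after thinning each to 1144 non-mitochondrial UMIs. Under the members' own looser gate the low-mt share was 156 of 902 (17.3%). Low-mt barcodes under 1% were shallow as well, with a median of 1944 non-mitochondrial UMIs against 6199 in the other low-mt barcodes. In high-mt barcodes the depth was alike, at 1075 UMIs under 1% and 1153 in the others. Along the mitochondrial share, with the same gate throughout, barcodes under 1% made up 31.4% up to 5% mitochondrial UMIs, then 8.01%, 18.3% and 35.5% in steps of 5 up to 20%. Beyond 20% they made up 31.9% and 30.4% in the next steps of 5, then 15.2% at over 30 and up to 40%, and 9.38% above that.

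Malat1-poor and Malat1-rich high-mt barcodes differed in opposite directions from low-mt barcodes. Ribosomal protein genes made 152507 CPM in members with Malat1 under 1% and 27607 CPM in members with 4% or more, beside 59390 CPM in low-mt barcodes. The order was the same in every suffix, at 167572, 161385 and 107958 CPM under 1% and 22765, 37420 and 25430 CPM at 4% or more. The Spearman correlation of the Malat1 and ribosomal protein shares over the 226 barcodes was -0.72, a description of shares that have 1 total in common. In low-mt barcodes it was -0.63, and -0.58 after thinning. Of barcodes with Malat1 under 1%, 38 of 53 high-mt and 47 of 80 low-mt ones had 10% or more ribosomal protein UMIs. The relation was thus not particular to high-mt barcodes. Rps13, a small-subunit protein, had 1739 CPM under 1% and 188.2 CPM at 4% or more. Translation factors made 22425 CPM under 1% and 4888 CPM at 4% or more, beside 10206 CPM in low-mt barcodes. OXPHOS genes made 16583 CPM under 1% and 4547 CPM at 4% or more, beside 9235 CPM in low-mt barcodes. Ubb, a polyubiquitin gene, had 1266 CPM under 1% and 183.1 CPM at 4% or more. The reverse held for nuclear RNA that the limit did not use. The nuclear-retained list without Malat1 made 320.4 CPM under 1% and 2813 CPM at 4% or more, of which Gm26917 supplied 198.3 and 1556 CPM. Splicing and CLK factors made 3082 and 14022 CPM. Neat1 had 1 UMI under 1% and 150 UMIs at 4% or more, a ratio of 0.0200 (0.000503 to 0.113). Pnisr, a splicing-related speckle protein, had 0 UMIs under 1%, where 3 counts would make 45.8 CPM, against 768 CPM at 4% or more.

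**Figure D3:**
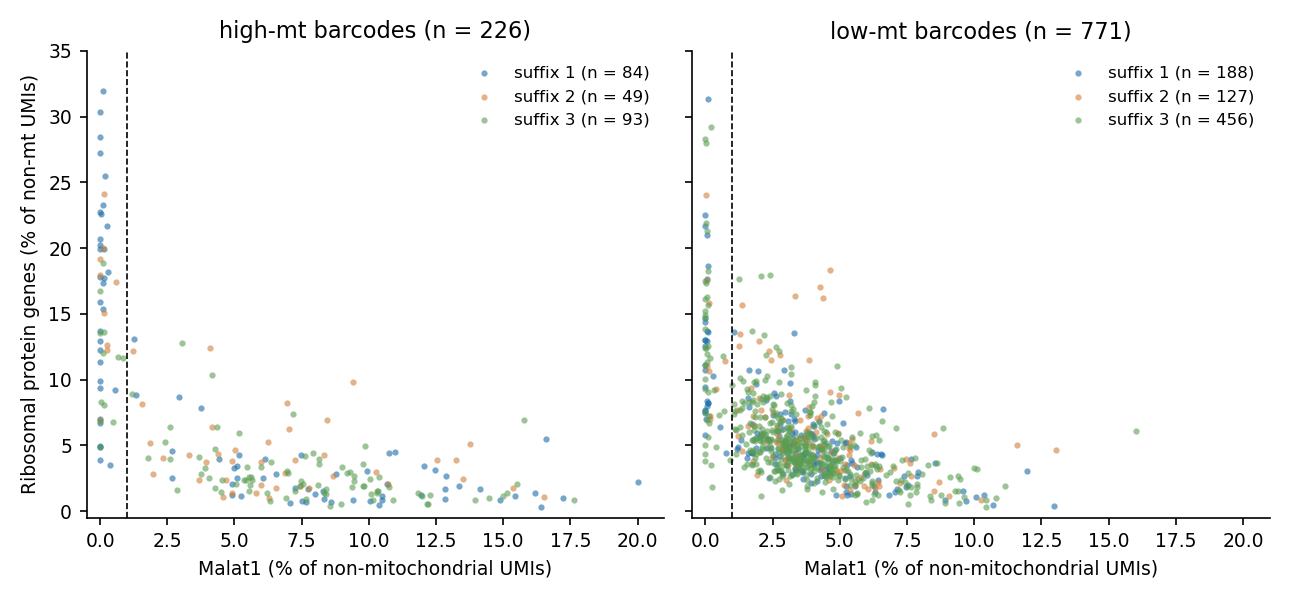
Share of ribosomal protein genes against share of Malat1 in the non-mitochondrial UMIs of each barcode, for high-mt barcodes (left) and low-mt barcodes (right), coloured by suffix; the dashed line marks 1% Malat1. High-mt barcodes split into 53 on the left with up to 31.9% ribosomal protein UMIs and a spread to the right that reaches 20.0% Malat1, while most low-mt barcodes lie between 2 and 8% Malat1.

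Suffix 1 had both the largest share of Malat1-poor members and the highest ribosomal protein ratio, and how far the first sets the second was not tested. Lists tied to membranes differed less across the split. ER translocation and folding genes made 4134 CPM under 1% and 3057 CPM at 4% or more, both below the 5034 CPM of low-mt barcodes. Lysosome genes made 6163 CPM under 1% and 6002 CPM at 4% or more, beside 8872 CPM in low-mt barcodes. Gate markers made 5431 CPM under 1% and 4817 CPM at 4% or more, so both kinds carried the endothelial genes that chose them. Secreted proteins made 16720 CPM under 1% and 9786 CPM at 4% or more, and endocytic receptors 10465 and 15284 CPM. Hepatocyte RNA was present in both, at 3005 CPM under 1% and 1500 CPM at 4% or more.

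Transcript length ran in opposite directions on the 2 sides. In members under 1% Malat1 the median ratio to low-mt barcodes was 1.18 in the shortest length class and 0.674 in the longest. In members at 4% or more it was 0.641 in the shortest class and 1.18 in the longest. Genes with a hydrophobic segment had a lower median than genes without one on both sides, at 0.636 and 0.883 under 1% and at 0.872 and 0.974 at 4% or more. All genes tested had medians of 0.7908 under 1% and 0.9475 at 4% or more. Members under 1% held 65551 non-mitochondrial UMIs in all, so genes near 50 CPM had few counts there. Both kinds of member thus had the lower median for genes with a segment, but the level of these genes was not shared. In the shortest class they had 0.847 under 1% and 0.620 at 4% or more, against 1.32 and 0.651 without a segment. In the longest class genes with a segment had 0.606 under 1% and 1.12 at 4% or more.

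**Figure D4:**
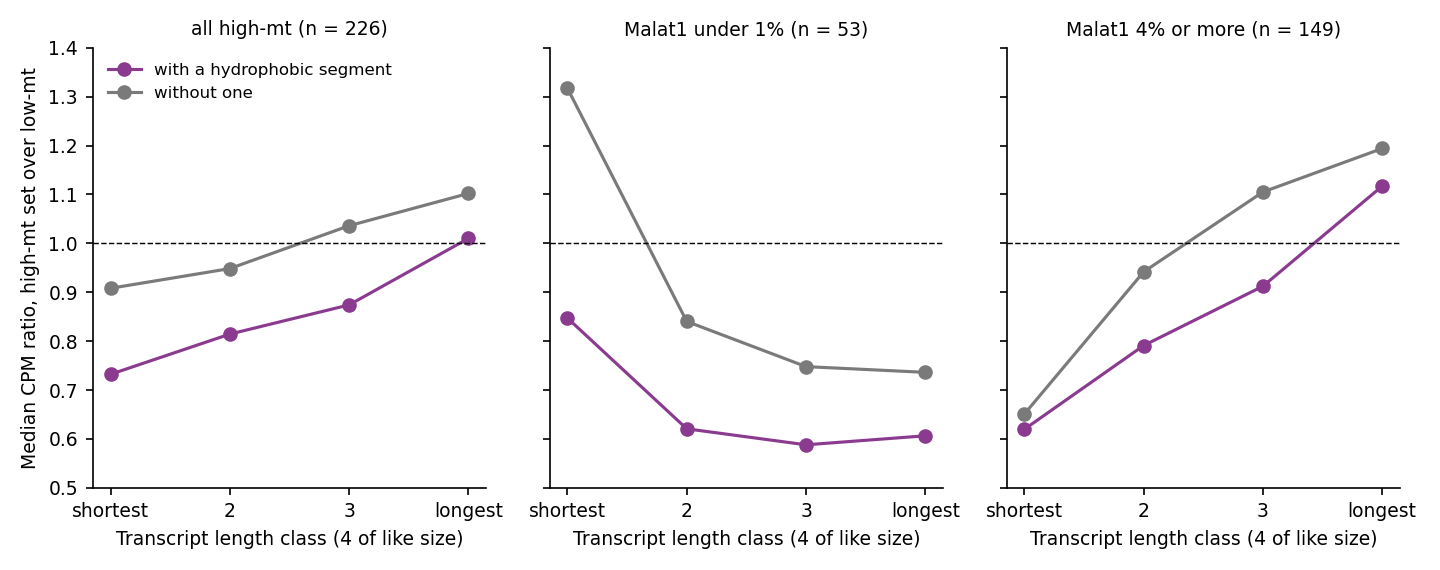
Median ratio of gene CPM to low-mt barcodes by class of transcript length (4 of like size), for all high-mt barcodes, those with Malat1 under 1% and those with 4% or more, with genes split by a hydrophobic segment of the protein. Under 1% both lines are highest in the shortest class and change little over the longer ones, at 4% or more both climb with length, and genes with a segment lie below the others in every class of every panel.

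The lists also changed level along the mitochondrial share below the limit that chose the members. With the members' gate throughout and suffixes pooled, nuclear-retained RNA made 30613 CPM up to 5% mitochondrial UMIs, 35919, 42608 and 50357 CPM in the next steps of 5, then 54252 and 53803 CPM up to 30%, 71663 CPM up to 40% and 70854 CPM above. The order did not hold step by step within suffixes. Suffix 1 had 35419 CPM up to 5%, 39150 CPM at over 15 and up to 20%, 35422 CPM at over 25 and up to 30%, and 69837 CPM above 40%. Suffix 2 had 71720 CPM at over 30 and up to 40% and 43587 CPM above that, where it holds 6 barcodes. ER translocation and folding genes made 5249, 5110, 4910 and 3638 CPM in the steps up to 20%, then 3479, 3461, 2785 and 3417 CPM. Secreted protein genes made 18786 CPM in the lowest step, 19828 CPM in the next, 9886 CPM at over 30 and up to 40%, and 14153 CPM above that. The last step holds the suffix 1 barcode rich in hepatocyte RNA. Hepatocyte genes made 1983 CPM at over 30 and up to 40% and 32751 CPM above that. The part of this barcode in the last step was not tested. Median depth went down with these steps, from 6675 non-mitochondrial UMIs in the lowest to 841.5 in the highest. Within the 226 members the correlation of the mitochondrial share with the nuclear-retained share was weak (Spearman 0.25; 0.45, 0.11 and 0.18 in suffixes 1, 2 and 3).

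**Figure D5:**
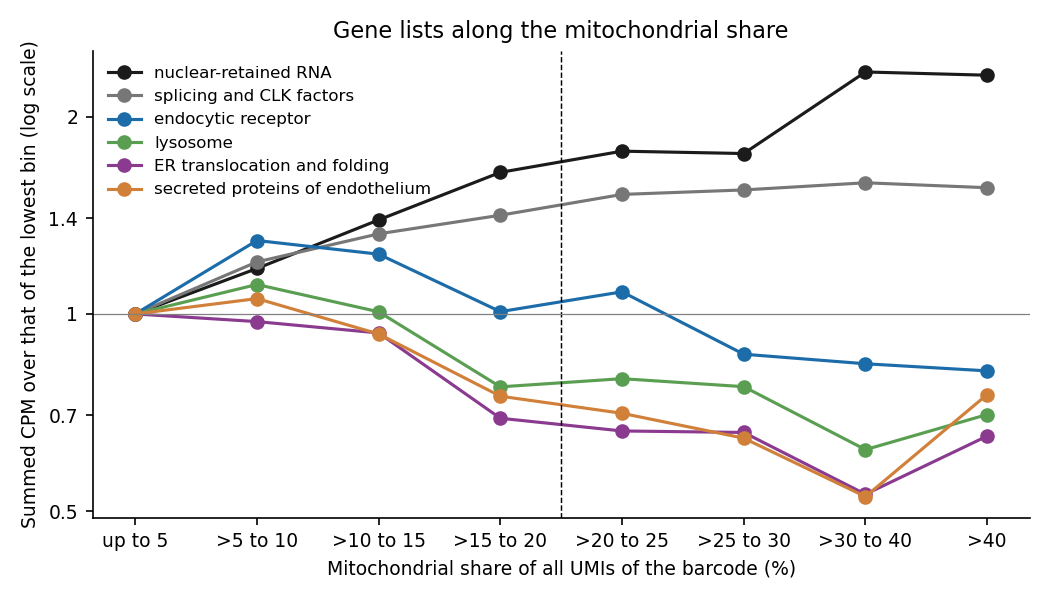
Summed CPM of 6 gene lists relative to barcodes with up to 5% mitochondrial UMIs (log axis) along 8 steps of mitochondrial share; the dashed line marks 20%. Suffixes are pooled. Nuclear-retained RNA reaches 70854 CPM above 40%. The ER, secreted protein and lysosome lists lie lower beyond 20% than in the lowest step. The secreted protein and lysosome lists first rise, to 19828 and 9170 CPM in the second step. Each has an uptick in the last step of 32 barcodes, which holds the suffix 1 barcode with 91.3% mitochondrial UMIs.

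High-mt barcodes of other cell types had nuclear RNA in excess too, with another cytosolic pattern. Against low-mt barcodes under the same gate, the nuclear-retained list had a ratio of 1.64 in sinusoidal endothelial barcodes, 2.33 in Kupffer barcodes and 3.69 in plasmacytoid dendritic barcodes. Ribosomal protein genes had 0.891 in sinusoidal endothelial barcodes, 0.514 in Kupffer barcodes and 0.0630 in plasmacytoid dendritic barcodes. The ER translocation and folding list had 0.658, 0.936 and 0.359 in the same order. These differences between cell types were not tested.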

How the data were processed

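Per the labels' protocols, livers were perfused with PBS, minced and enzymatically digested, red cells were lysed, and stained cells were flow sorted. About 2000 cells per treatment were loaded for droplet 3′ libraries (10x Genomics). Raw UMI counts (31053 genes by 4638 barcodes) were deposited by the authors as a single matrix, made with Cell Ranger 3.1.0 per the file headers, on mm10 per the submitters' processing notes. The 3 libraries hold 6144949, 8754827 and 9211407 UMIs (suffixes 1 to 3). No map from suffix to treatment was found in the sources used here, so the matrix counts as 1 sample and no test was run. The barcodes number 1211, 1701 and 1726; 3 barcode sequences occurred in 2 libraries, none of them in a high-mt barcode. No doublet caller was run.

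Counts were summed over barcodes and given as CPM of non-mitochondrial UMIs (Python 3.11.15, numpy 2.4.6, scipy 1.17.1), 305843 UMIs in high-mt barcodes and 4596418 in low-mt barcodes. Ratios have exact intervals conditional on the total, shares have Clopper-Pearson intervals, both at 95% and covering counting error only. A count of 0 allows 3 counts, or 9.81 CPM, in the summed high-mt barcodes. Named genes were the 12 highest and 12 lowest by the rule given in the text, and up to 4 members with the highest low-mt CPM of each of 39 gene lists; Srrm2, Canx, Stab1, Siglech, the 6 ER genes and the genes of the Malat1 split were chosen after their values were seen. The members, lists and limits were chosen with earlier results of these data known. Annotation came from GENCODE M21 (a length for 99.9% of genes tested). The interval was checked on simulated counts. Alternatives included TMM scaling (edgeR 4.0.16), other gates and thresholds, and leaving out each library.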

Additional observations from a re-analysis of the deposited data

How the results depend on the processing

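Nuclear-retained RNA stayed above 1 and the OXPHOS and endocytic receptor lists below 1 under every alternative run, as did the ER translocation and folding (0.606 to 0.706) and secreted protein lists (0.599 to 0.709). Nuclear-retained RNA moved to 1.68 without ribosomal protein genes, Malat1 and Neat1 in the denominator, 1.69 with each barcode weighed equally, 1.602 with libraries weighed equally, 1.56 with low-mt barcodes thinned and gated like the high-mt barcodes, 1.57 without barcodes with 2 or more UMIs of other immune cells, 1.53 with at least 1000 non-mitochondrial UMIs, and 2.04 with limits of above 40% and up to 10%. The ribosomal protein ratio moved to 0.995, 1.04, 0.923, 0.995 and 1.04 under the first 5 of these, to 0.708 under the last, and to 0.891 with the looser low-mt gate. It thus crossed 1 with equal barcodes and without immune UMIs. Kupffer markers were not counted among these immune UMIs. Endocytic receptors moved to 0.722 with equal barcodes, 0.781 with the looser gate and 0.646 with the 40% and 10% limits, where OXPHOS was 0.629. Under those limits, which leave 32 high-mt barcodes, 132 genes were higher and 853 lower. At 3-fold these counts were 38 and 25, and with no minimum CPM 308 and 1710.

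Leaving out each suffix in turn gave 114 to 165 higher and 228 to 289 lower genes, since fewer suffixes had to share a direction. The same step gave ranges of 1.47 to 1.78 for nuclear-retained RNA, 0.740 to 1.17 for ribosomal proteins (1.01 without suffix 2, 1.17 without suffix 3), 0.714 to 0.909 for OXPHOS and 0.692 to 0.830 for receptors. The high-mt share ran from 17.3 to 26.4% and was 2.84% above 40% mitochondrial UMIs and 14.6% from 1000 non-mitochondrial UMIs. The Malat1-poor share of members ran from 14.8% without suffix 1 to 30.8% without suffix 3, and was 9.38% above 40%. These last alternatives, equal library weight and the values without barcodes rich in hepatocyte or erythroid RNA were chosen after seeing the data.

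Lists near 1 changed side. Apoptosis and p53 genes were at 0.993 with TMM, 0.979 with the looser gate, 0.946 with the 40% and 10% limits, 0.996 from 1000 UMIs, 0.995 with libraries equal, and 1.07, 0.994 and 0.936 without suffixes 1, 2 and 3. Endothelial transcription factors were at 1.01 with the other denominator, 1.01 with the looser gate, 1.02 with equal barcodes and 1.02 without suffix 1 (0.952 without suffix 3). Translation factors were at 1.05 without suffix 3 and 0.734 without suffix 1. Erythroid genes were at 7.54 without suffix 3 and 0.0924 without suffix 2, 3.06 without the 7 barcodes and 1.66 with libraries equal. The causes were not tested. No paired test was run. Each suffix holds both groups, and the ratios within suffixes given in the text are the paired values. Depth limits the members: 50 CPM is few UMIs in 305843, so most single genes have wide intervals.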
